A study of Homo sapiens with 38 samples.

Results

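Naive Shef6 human embryonic stem cells were compared with the same cells after 4 days in N2B27 basal medium with XAV939 (XAV), in the second experiment of the series (Ex2). The groups were taken from the sample labels, and the comparison covers 4 of the 38 libraries, 2 of XAV at day 4 and 2 of naive cells at day 0. The series follows capacitation, the passage of naive cells towards competence for lineage formation, by 3′ tag RNA sequencing in 19 groups of 2 libraries. The naive side was serum-adapted Shef6 kept on Geltrex, a basement membrane matrix, in PXGL, which is N2B27 with the MEK inhibitor PD0325901, the tankyrase inhibitor XAV939, the PKC inhibitor Gö6983 and the cytokine LIF. Its labels give day 0, but the library name carries d4 and PXGLY. The XAV side was plated on Geltrex in N2B27 with a ROCK inhibitor for the first day, and XAV939 was the pathway agent named for it at day 4. XAV939 was therefore present on both sides, and the named media differed in MEK inhibitor, PKC inhibitor and LIF, which cannot be told apart. The meaning of Y in PXGLY is not given, but in the paper's blastoid medium LY it is a ROCK inhibitor. Such an inhibitor on the naive side at collection would be a further difference that cannot be told apart. Whether the naive cells were also replated and kept for the same time is not given in the sources used here. N2B27 at day 4 without XAV939 in Ex2 served as a reference, as did N2B27 at day 4 beside its own naive cells on Geltrex in the first experiment (Ex1). Below, the Ex1 naive libraries are those on Geltrex, and all 6 naive libraries include 2 more of Ex1 on serum coating. A replicate was a parallel library of 1 experiment on 1 cell line, so the p-values measure the spread between such libraries and not between repeats of the experiment.

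MEK phosphorylates ERK, and ERK signalling switches on the ETS factors ETV1, ETV4 and ETV5, the immediate early genes, and the Sprouty, SPRED and dual-specificity phosphatase genes that in turn restrain it. LIF acts through its receptor and gp130 on JAK and STAT3, whose best known target is the feedback inhibitor SOCS3. Tankyrase inhibition stabilises AXIN and so lowers β-catenin signalling, while PKC inhibition is used in naive human media to hold back differentiation.

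The DNA at the starts of 4 genes is shown to place the signalling motifs searched for, each from 250 bases before to 50 bases after a RefSeq gene start (GRCh38.p14), 5′ to 3′ on the strand of the gene. SPRY4 (chr5:142324198-142324497, minus strand), SPRY2 (chr13:80341077-80341376, minus strand) and PHLDA1 (chr12:76031727-76032026, minus strand) are ERK pathway genes, and SP5 (chr2:170715087-170715386, plus strand) is a direct WNT target. Capitals mark the ETS core CCGGAA in SPRY2 and PHLDA1 and the TCF/LEF motif CTTTGAT in SP5, searched on both strands, and SPRY4 has none because its window held no CCGGAA.
SPRY4: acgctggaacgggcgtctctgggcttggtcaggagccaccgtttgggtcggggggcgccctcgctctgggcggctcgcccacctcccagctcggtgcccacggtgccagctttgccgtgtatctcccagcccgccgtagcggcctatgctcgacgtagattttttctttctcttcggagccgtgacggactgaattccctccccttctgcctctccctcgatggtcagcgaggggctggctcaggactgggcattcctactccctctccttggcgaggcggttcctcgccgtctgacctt
SPRY2: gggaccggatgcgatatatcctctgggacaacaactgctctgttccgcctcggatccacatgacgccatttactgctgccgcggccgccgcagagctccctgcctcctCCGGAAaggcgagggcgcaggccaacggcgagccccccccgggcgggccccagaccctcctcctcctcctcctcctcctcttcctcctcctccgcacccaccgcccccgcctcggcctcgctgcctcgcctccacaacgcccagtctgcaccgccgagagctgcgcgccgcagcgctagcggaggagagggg
PHLDA1: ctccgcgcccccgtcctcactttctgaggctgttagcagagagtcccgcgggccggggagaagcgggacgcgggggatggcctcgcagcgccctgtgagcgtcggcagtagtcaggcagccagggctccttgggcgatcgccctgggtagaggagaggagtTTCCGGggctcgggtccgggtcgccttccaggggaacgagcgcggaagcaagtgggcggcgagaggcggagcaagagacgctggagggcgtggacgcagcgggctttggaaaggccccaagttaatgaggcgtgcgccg
SP5: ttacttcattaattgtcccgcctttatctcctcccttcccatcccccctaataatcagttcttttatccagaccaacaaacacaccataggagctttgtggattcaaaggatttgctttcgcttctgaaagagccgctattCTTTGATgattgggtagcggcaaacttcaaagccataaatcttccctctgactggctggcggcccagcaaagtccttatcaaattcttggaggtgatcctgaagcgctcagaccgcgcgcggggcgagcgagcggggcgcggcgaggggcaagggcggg
The marked ETS core lay 142 bases before the SPRY2 start and 89 before that of PHLDA1, and the TCF/LEF motif 109 bases before that of SP5. Of the 19 ERK pathway genes higher in XAV, 11 had an entry, with 21 start windows, and 6 windows of 4 genes held CCGGAA, against 17.2% of all 35116 windows. Of these 6, 3 were windows of ETV1, and 2 of those overlap and hold the same site, so the windows are not separate sites. The AP-1 motif TGANTCA was in 1 of the 21 windows, against 7.71% of all windows. The STAT motif TTCNNNGAA was in none of the 6 windows of 5 called LIF pathway genes, against 7.66% of all, and so few windows say little. Neither SOCS3 window held the SOCS3 start in GENCODE (chr17:78360077, minus strand), and the SPRY4 window did not hold that of SPRY4 (chr5:142326455). The DNA at those starts was not searched. CTTTGAT was in 1 of the 10 windows of 6 called WNT genes, against 2.62% of all.

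Total counts were 3038046 and 3642536 in the naive libraries, the first being the lowest of the series, and 4957636 and 5024010 in the XAV libraries. Ribosomal protein genes took 11.6% to 11.7% of naive and 8.77% to 8.85% of XAV counts, and the part of this in the results was not tested. Log2 CPM (CPM, the count scaled by library total and TMM factor) correlated across genes with r = 0.978 between the naive libraries, 0.985 between the XAV libraries and 0.907 to 0.913 between the groups, where genes are not independent replicates. POU5F1, SOX2 and NANOG, the core pluripotency factors, stood at 165.7 CPM or more in all 4 libraries. Of 12 listed fibroblast genes 9 were tested, 3 were higher and none lower in XAV, against 11.5% and 8.08% of all genes, and the summed level was 5.81 to 8.54 CPM in naive and 141.7 to 152.1 CPM in XAV. LUM, DCN and FAP, the members that did not pass the filter on low counts, had at most 2 counts in any of the 4 libraries.

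XAV day 4 differed from naive in 3272 of 16674 tested genes (19.6%). A gene was called when its adjusted p (edgeR quasi-likelihood test, Benjamini-Hochberg) was under 0.05 and its log2 fold change above 1 in size. Of these, 1924 genes were higher (11.5%) and 1348 lower (8.08%), and the median over all tested genes was 0.02 on the log2 scale. The libraries of both sides did not overlap in 71.2% of tested genes. In bulk RNA, fewer cells of a type and less RNA per cell cannot be told apart.

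**Figure D1:**
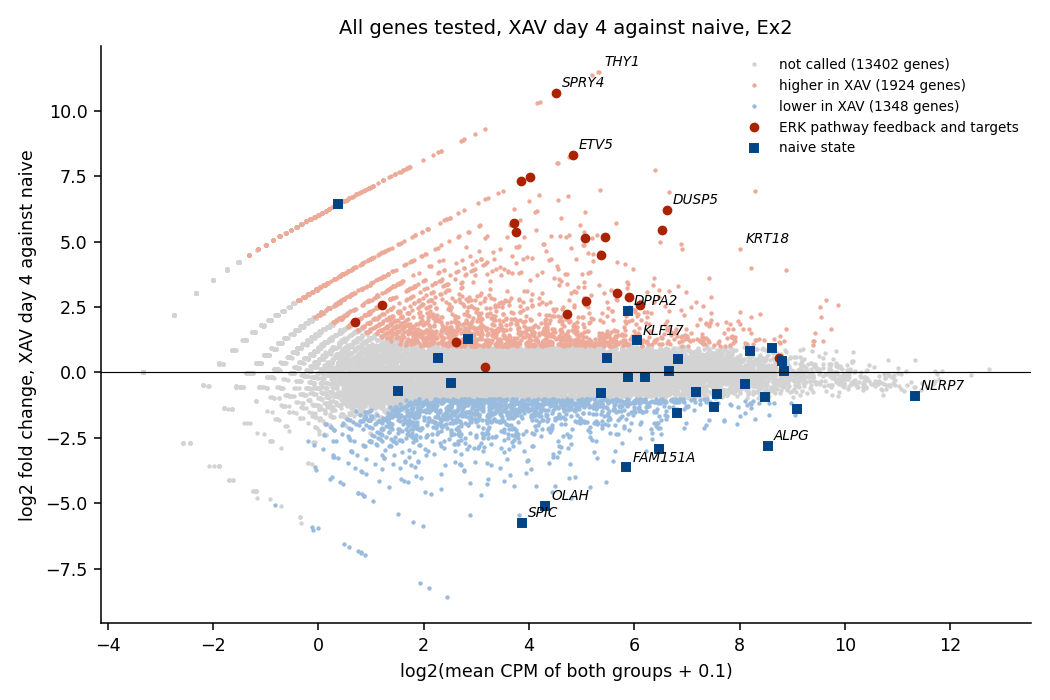
Log2 fold change of XAV day 4 against naive (y axis) by mean level, as log2 of the mean CPM of both groups plus 0.1 (x axis), for the 16674 tested genes. Of these, 1924 were higher, 1348 lower and 13402 not called, with ERK pathway genes as circles and naive state genes as squares; the fitted change of a gene at 0 in one group, on the slanting lines at the left, depends on the prior count and is no bound.

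The ERK pathway genes were higher in XAV. Of 25 listed feedback and target genes 21 passed the filter on low counts, and 19 of these were higher and none lower, against 11.5% and 8.08% of all genes. Their median change was 4.47 on the log2 scale, also with SPRY4 set to its lower bound. The Sprouty genes encode inhibitors of receptor tyrosine kinase signalling. SPRY4 had no count in either naive library and 47.7 and 43.8 CPM in XAV. That was at least 99.8-fold higher, against a floor of 3 counts over both naive libraries (adjusted p = 9.18e-14). SPRY2 went from 7.51 and 10.2 CPM to 66 and 52 CPM, a log2 change of 2.71 ± 0.19 (SE, n = 2 libraries per group, edgeR adjusted p = 2.86e-13). The groups did not overlap for either gene. SPRY1 had 4.78 and 2.77 CPM in naive and 7.24 and 9.16 CPM in XAV (log2 change 1.15 ± 0.32, adjusted p = 0.00468). SPRY1 was not called without naive replicate 2 (0.81, adjusted p = 0.126) or without XAV replicate 2 (0.97, adjusted p = 0.0547).

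SPRED1 and SPRED2, membrane-bound inhibitors of RAF activation, also rose. SPRED1 had 3.76 and 3.32 CPM in naive and 78.5 and 79.1 CPM in XAV, a 22.2-fold difference (log2 4.47 ± 0.20, adjusted p = 2.74e-18). SPRED2 had 7.51 and 10.8 CPM against 43.5 and 44 CPM (log2 2.23 ± 0.21, adjusted p = 1.52e-10). Both genes had all XAV libraries above all naive libraries.

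The dual-specificity phosphatases DUSP4, DUSP5 and DUSP6 act on MAP kinases, among them ERK. DUSP5 had 2.39 and 2.77 CPM in naive and 198.4 and 189.4 CPM in XAV, a 73.9-fold difference (log2 6.21 ± 0.19, adjusted p = 4.44e-22). DUSP6 had 1 count in the naive libraries together and 28 and 29.1 CPM in XAV (ratio 186.6, interval 33.2 to 7397, adjusted p = 1.61e-13). DUSP4 likewise had 1 naive count and 32.8 and 31.1 CPM in XAV (ratio 208.9, interval 37.2 to 8277, adjusted p = 2.26e-14). Here and below, the interval of a ratio is an exact 95% one that covers counting error only. All 3 phosphatases were low in both naive libraries and higher in both XAV libraries.

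The ETS factors ETV1, ETV4 and ETV5 act at the end of FGF and ERK signalling. ETV5 had 1 naive count and 57.2 and 56.4 CPM in XAV (ratio 371.3, interval 66.4 to 14690, adjusted p = 1.32e-18). ETV1 had 2.73 and 1.94 CPM in naive and 87.5 and 81.9 CPM in XAV (log2 5.19 ± 0.23, adjusted p = 4.04e-18). ETV4, already present in naive cells at 10.2 and 11.9 CPM, reached 98 and 84.4 CPM (log2 3.03 ± 0.23, adjusted p = 1.89e-12). The naive and XAV libraries were apart for each of the 3.

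The immediate early genes differed among themselves. FOS, a subunit of AP-1, had 0.342 and 0.830 CPM in naive and 26.4 and 26.3 CPM in XAV (log2 5.37 ± 0.54, adjusted p = 1.13e-09). EGR1, a zinc finger factor, had 0.683 and 0.553 CPM against 4.63 and 2.99 CPM (log2 2.58 ± 0.54, adjusted p = 0.000229). FOSL1, another AP-1 subunit, reached 2.42 and 2.39 CPM (log2 1.93 ± 0.58, adjusted p = 0.0116). Its call was lost with DESeq2 (adjusted p = 0.0759), with no filter (0.0552) and without naive replicate 2 (0.101). JUNB and IER2 were the tested members not called. JUNB had 7.85 and 8.58 CPM in naive and 9.26 and 9.56 CPM in XAV (log2 0.19, adjusted p = 0.619), and its value was −0.59 against the Ex1 naive libraries. IER2 had 340.8 and 362.2 CPM against 523.4 and 500.3 CPM (log2 0.54, adjusted p = 0.000127), inside the size threshold. EGR2, EGR3, FOSB and SPRED3 did not pass the filter and had at most 4 counts in any of the 4 libraries.

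Growth genes downstream of the pathway had large changes. MYC had 3 counts in the naive libraries together and 25.8 and 25.5 CPM in XAV (ratio 55.9, interval 18.9 to 272.8, adjusted p = 4.45e-12). CCND1, cyclin D1, had 1.37 and 2.21 CPM against 65.4 and 64.3 CPM (log2 5.12 ± 0.30, adjusted p = 3.33e-15). Against the Ex1 naive libraries, at 6.06 and 6.50 CPM, the CCND1 value was 3.36. PHLDA1 had 5.46 and 3.04 CPM against 183.5 and 177.8 CPM (log2 5.44 ± 0.17, adjusted p = 5.68e-22). IER3 and the FGF receptor antagonist IL17RD rose from higher naive levels, with log2 changes of 2.88 ± 0.25 and 2.57 ± 0.16. None of the 21 tested ERK pathway genes was called between XAV and N2B27 at day 4 of Ex2, where 0.570% of all genes were.

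**Figure D2:**
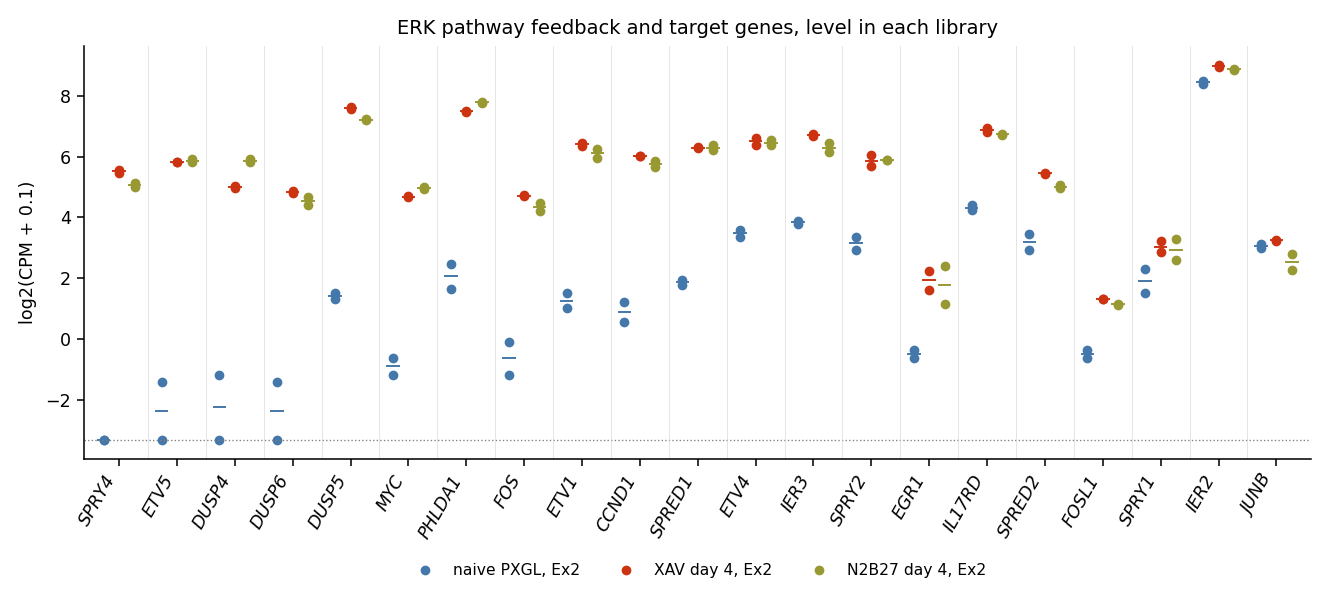
Level of the 21 tested ERK pathway genes as log2(CPM + 0.1) in each library of naive cells, XAV day 4 and N2B27 day 4 of Ex2, ordered by their change. Points are libraries, short bars are means of 2, and the dotted line is a count of 0: 19 genes were called higher in XAV than in naive cells, while IER2 and JUNB were not.

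The inputs to the pathway moved in part. Of 15 listed FGF ligands and receptors 11 were tested, with 5 higher, none lower and a median of 0.94, against 11.5% higher and 8.08% lower of all genes. With all 6 naive libraries 3 were higher, where 10.5% of all genes were. FGF2 had 22.9 and 29.3 CPM in naive and 307.3 and 327.6 CPM in XAV, a 12.1-fold difference (log2 3.59 ± 0.12, adjusted p = 7.92e-22). FGFR1, a receptor of FGF2, had 77.5 and 95.5 CPM against 426.4 and 428.8 CPM (log2 2.30 ± 0.12, adjusted p = 5.13e-16). FGF19, an endocrine ligand, had 1.37 and 0.277 CPM against 22.9 and 18.7 CPM (log2 4.71 ± 0.43, adjusted p = 1.05e-10). Each of these was higher in both XAV libraries. FGF4, an autocrine ligand of pluripotent cells, had 311.1 and 324.3 CPM in naive and 240.7 and 230.4 CPM in XAV. Its log2 value of −0.43 ± 0.15 (adjusted p = 0.0175) lay inside the size threshold.

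Of 15 listed PKC isoforms and substrates 12 were tested, and 4 rose and none fell, against 11.5% and 8.08% of all genes, with a median of 0.65. The isoform PRKCQ had 4.10 and 3.87 CPM in naive and 12.9 and 13.9 CPM in XAV (log2 1.75 ± 0.31, adjusted p = 2.76e-05). The conventional isoform PRKCA (log2 0.68, adjusted p = 0.146) and the atypical PRKCZ (−0.67, adjusted p = 0.0165) were not called, though PRKCA was without naive replicate 2 (1.42, adjusted p = 0.0362). Among the substrates, MARCKSL1 had 44.1 and 40.7 CPM against 101.8 and 98.6 CPM (log2 1.24 ± 0.18, adjusted p = 1.84e-06), and MARCKS 0.683 and 0.553 CPM against 6.64 and 4.98 CPM (log2 3.19 ± 0.54, adjusted p = 1.39e-05). Both substrates were higher in the XAV libraries, but neither was called against the Ex1 naive libraries (0.63, adjusted p = 0.00395, and 0.72, adjusted p = 0.0884). PRKCH was at 3.02 and 2.99 CPM in XAV, and its call (log2 1.69, adjusted p = 0.0375) was lost on leaving out any of the 4 libraries (adjusted p 0.0876 to 0.183), with DESeq2 (0.0839) and with no filter (0.0541).

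Of 20 tested LIF and JAK-STAT3 genes 3 were higher and 3 lower, near the 11.5% and 8.08% of all genes, and the median was 0.01. SOCS3, the feedback inhibitor that LIF induces, had 1.02 and 0.830 CPM in naive cells kept with LIF and 11.3 and 13.9 CPM in XAV (log2 3.74 ± 0.39, adjusted p = 2.27e-09). SOCS2 had the opposite change, from 24.9 and 19.4 CPM to 4.63 and 3.59 CPM (log2 −2.42 ± 0.28, adjusted p = 2.23e-08). BCL3, an NF-κB cofactor, had 27.3 and 42.3 CPM against 8.45 and 6.17 CPM (log2 −2.26 ± 0.28, adjusted p = 5.91e-08). SOCS3 was thus higher in both XAV libraries, and SOCS2 and BCL3 lower in both. The homeobox gene GBX2 had 2 naive counts and 33.4 and 29.3 CPM in XAV (ratio 102.5, interval 28.1 to 850.0, adjusted p = 2.39e-15). The receptor genes LIFR (log2 0.15, adjusted p = 0.641) and IL6ST, which encodes gp130 (−0.18, adjusted p = 0.274), were not called. STAT3 itself (0.90 ± 0.20, adjusted p = 0.000372) lay inside the size threshold and was called without naive replicate 1 (1.22) and against the Ex1 naive libraries (1.13). The kinase gene TYK2 fell by 1.55 and the inhibitor gene SOCS1 rose by 1.20 on the log2 scale. Neither was called against the Ex1 naive libraries (−0.39, adjusted p = 0.282, and 0.72, adjusted p = 0.0518).

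Of the WNT feedback and target genes, with tankyrase inhibited on both sides, 5 were higher and 2 lower of 19 tested (11.5% and 8.08% over all genes), with a median of 0.30, or 0.13 with a gene at 0 in naive cells set to its lower bound. The tankyrase genes were not called, TNKS having 23.9 and 19.4 CPM against 22.3 and 22.3 CPM (log2 0.05, 95% interval −0.27 to 0.38) and TNKS2 33.8 and 29.1 CPM against 33.4 and 31.1 CPM (log2 0.04, 95% interval −0.31 to 0.40). AXIN2, the classical β-catenin feedback gene, had 21.5 and 18.3 CPM against 40.5 and 44 CPM (log2 1.09 ± 0.22, adjusted p = 0.000162). The Ex1 naive libraries held 35.7 and 34.1 CPM of AXIN2, against which it was not called (log2 0.28, adjusted p = 0.303). The transcription factor gene TCF7 had 7.85 and 8.58 CPM against 28.4 and 27.1 CPM (log2 1.75 ± 0.26, adjusted p = 1.64e-06), and 0.85 against the Ex1 naive libraries, inside the size threshold. SP5, whose start window held the TCF/LEF motif, had 2 naive counts and 12.5 and 11.6 CPM in XAV (ratio 39.3, interval 10.6 to 328.2, adjusted p = 4.38e-07).

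WNT5A and WNT5B, ligands best known for signalling without β-catenin, rose as well. WNT5B had 9.22 and 8.85 CPM against 29 and 30.3 CPM (log2 1.71 ± 0.21), and WNT5A 1 naive count and 5.43 and 6.17 CPM in XAV (ratio 38, interval 6.55 to 1526). RNF43, which removes WNT receptors from the membrane, went from 5.81 and 5.81 CPM to 1.01 and 0.797 CPM (log2 −2.65 ± 0.45, adjusted p = 1.56e-05). The fall of NKD2, a WNT inhibitor (−1.80, adjusted p = 0.00857), was lost without naive replicate 1 (adjusted p = 0.107) or XAV replicate 1 (0.0752). Between XAV and N2B27, AXIN2 (0.21, adjusted p = 0.845), TCF7 (0.08, adjusted p = 0.968) and SP5 (−0.51, adjusted p = 0.637) were not called.

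Of 14 tested Nodal and Activin genes 6 were higher and 2 lower, against 11.5% and 8.08% of all genes (median 0.96). LEFTY1, an inhibitor of Nodal, had 18.1 and 31.3 CPM against 95.4 and 103.4 CPM (log2 1.98 ± 0.21, adjusted p = 2.82e-09). The Ex1 naive libraries held 86.6 and 77.2 CPM of LEFTY1 and gave no call (log2 0.28, adjusted p = 0.242). The inhibitory SMAD gene SMAD7 had 7.51 and 8.85 CPM against 38 and 34.7 CPM (log2 2.14 ± 0.18), and 0.98 against the Ex1 naive libraries, inside the size threshold. NODAL had 92.5 and 126.2 CPM against 193.6 and 189.2 CPM (log2 0.80 ± 0.17) and was not called, except without naive replicate 2 (1.08), and its value was −0.18 against the Ex1 naive libraries.

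Of 13 tested BMP ligands and targets 8 were higher and 1 lower, against the same 11.5% and 8.08% (median 1.45). The BMP target ID1 had 17.1 and 24.9 CPM against 150.3 and 161.7 CPM (log2 2.87 ± 0.16, adjusted p = 8.14e-16). ID3, a second target, had 1.37 and 1.38 CPM against 53.9 and 52 CPM (log2 5.24 ± 0.30, adjusted p = 2.84e-15). The ligand gene BMP2 went the other way, from 12.3 and 22.4 CPM to 1.01 and 0.797 CPM (log2 −4.25 ± 0.37, adjusted p = 5.3e-11). The naive and XAV libraries did not overlap for these 3 genes. The ligand gene BMP7 rose by 2.86 ± 0.31 and the inhibitory SMAD6 by 2.77 ± 0.30 on the log2 scale. The call of NOG, a BMP antagonist (log2 2.88, adjusted p = 0.0201), was lost under 6 of the 14 alternatives run, among them DESeq2 (0.109), fitting only the compared libraries (0.0723) and leaving out naive replicate 1 (0.151) or XAV replicate 1 (0.202).

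**Figure D3:**
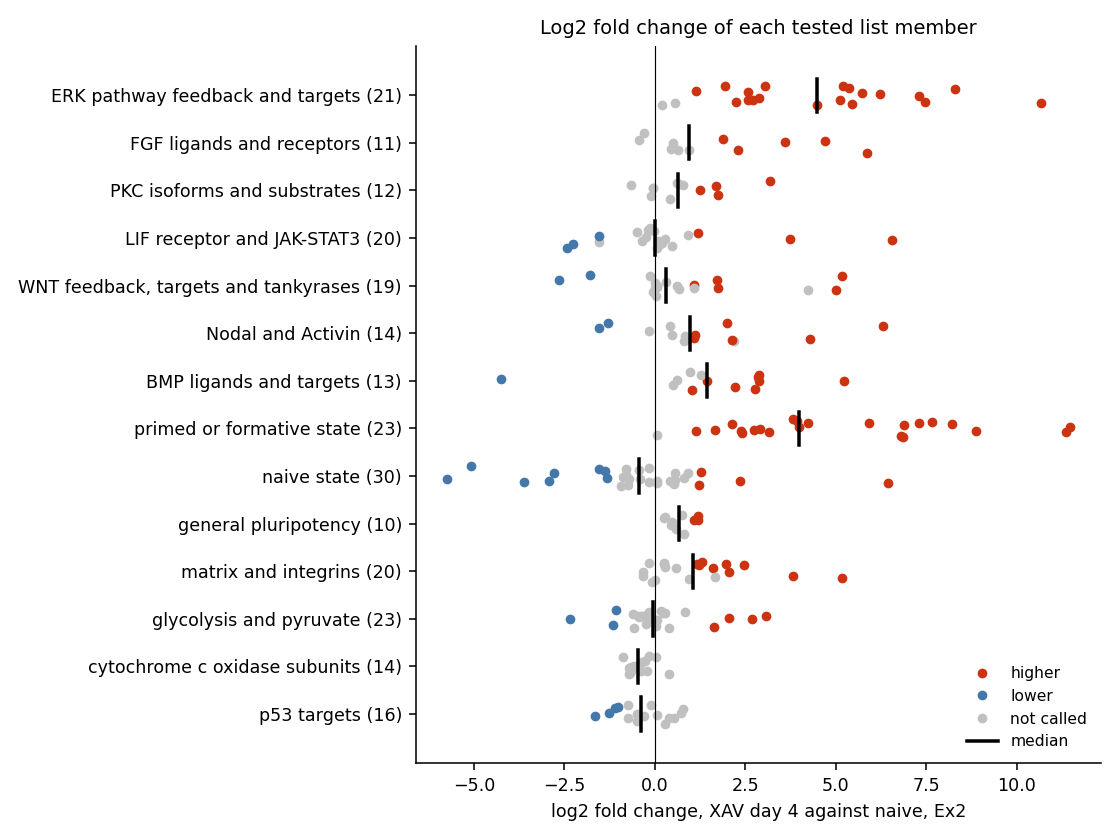
Log2 fold change of XAV day 4 against naive (x axis) for each tested member of 14 gene lists (rows, number tested in brackets). Red points were higher, blue lower and grey not called, and the black bar is the median, 4.47 for the ERK pathway genes, 3.98 for the primed genes and −0.43 for the naive genes.

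The naive state genes did not all move one way. All 30 listed genes were tested, 8 fell and 4 rose, against 8.08% and 11.5% of all genes, and the median was −0.43. Some of these markers, and of the primed markers below, were used by the study of these same libraries, so their direction is not independent evidence. SPIC, an ETS factor gene (chr12:101475336-101486997, GRCh38, plus strand), went from 31.4 and 25.7 CPM to 0.805 and 0.199 CPM (log2 −5.75 ± 0.42, adjusted p = 1.87e-12). OLAH, a thioesterase of fatty acid synthesis, had 33.5 and 43.2 CPM against 1.21 and 0.996 CPM (log2 −5.09 ± 0.50, adjusted p = 6.9e-10). FAM151A had 95.6 and 117.3 CPM against 7.85 and 9.36 CPM (log2 −3.63 ± 0.24, adjusted p = 6.22e-14). All 3 had both XAV libraries far below both naive libraries.

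Of the other genes that fell, CD70, a TNF family ligand, changed by −2.93 ± 0.23, ALPG, a germ cell alkaline phosphatase whose reads may be shared with its near copy ALPP, by −2.80 ± 0.15, and KLF5, a Krüppel-like factor, by −1.54 ± 0.11 on the log2 scale. Against the Ex1 naive libraries, which held 72.5 and 63.7 CPM of CD70 and 296.5 and 258.9 CPM of ALPG, the values were −1.73 and −1.57. KHDC1L had 825 and 760.9 CPM against 304.7 and 301.3 CPM (log2 −1.39 ± 0.15). DNMT3L, the cofactor of de novo DNA methylation, had 259.2 and 263.4 CPM against 104.2 and 105.1 CPM (log2 −1.32 ± 0.14).

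Several other naive genes did not pass both thresholds. TFCP2L1, a transcription factor of the naive network, had 232.5 and 251 CPM in naive and 135.6 and 140.8 CPM in XAV (log2 −0.81 ± 0.12, adjusted p = 9.77e-07, inside the size threshold). NLRP7 had 3308 and 3341 CPM against 1820 and 1781 CPM (log2 −0.88 ± 0.10), also inside it. DPPA5 (−0.94 ± 0.19) was called only without naive replicate 2 (−1.11). TFAP2C, an AP-2 factor, had 426.8 and 473.1 CPM against 447.9 and 483.7 CPM (log2 0.05, 95% interval −0.24 to 0.34). DPPA3 (0.81 ± 0.12), KHDC3L (0.91 ± 0.14) and the surface marker SUSD2 (0.52 ± 0.16) had higher values in XAV without passing the size threshold.

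KLF4 and KLF17, Krüppel-like factors of the naive state, gave different values with other naive libraries. KLF4 had 59.4 and 65.3 CPM in naive and 55.9 and 55.8 CPM in XAV (log2 −0.16, adjusted p = 0.471), and 108.9 and 110.4 CPM in the Ex1 naive libraries. Against all 6 naive libraries, those on serum coating included, the KLF4 value was −1.01 (adjusted p = 0.00189). KLF17 had 36.9 and 42.3 CPM in naive and 85.7 and 99.8 CPM in XAV (log2 1.22 ± 0.26, adjusted p = 0.000312). The Ex1 naive libraries on Geltrex held 107.5 and 125.9 CPM of KLF17, against which the value was −0.33 (adjusted p = 0.298). Pooling all 6, on both coatings, gave 0.24 (adjusted p = 0.565). KLF17 was thus higher in XAV than in the Ex2 naive libraries and was not called against those of Ex1. NR5A2, an orphan nuclear receptor, rose from 4.44 and 3.87 CPM to 10.7 and 9.36 CPM (log2 1.27 ± 0.27), and its call was lost against the Ex1 naive libraries (0.36, adjusted p = 0.223). DPPA2 had 19.5 and 18.8 CPM against 92.2 and 103.8 CPM (log2 2.36 ± 0.21, adjusted p = 1.28e-10), and ESRRB, another orphan receptor, 0 naive counts and 2.82 and 1.99 CPM in XAV, at least 5.24-fold higher. Against the Ex1 naive libraries the ESRRB value was 2.19 on the log2 scale, below that bound. DPPA2 and ESRRB stayed called under each of the 14 alternatives run.

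**Figure D4:**
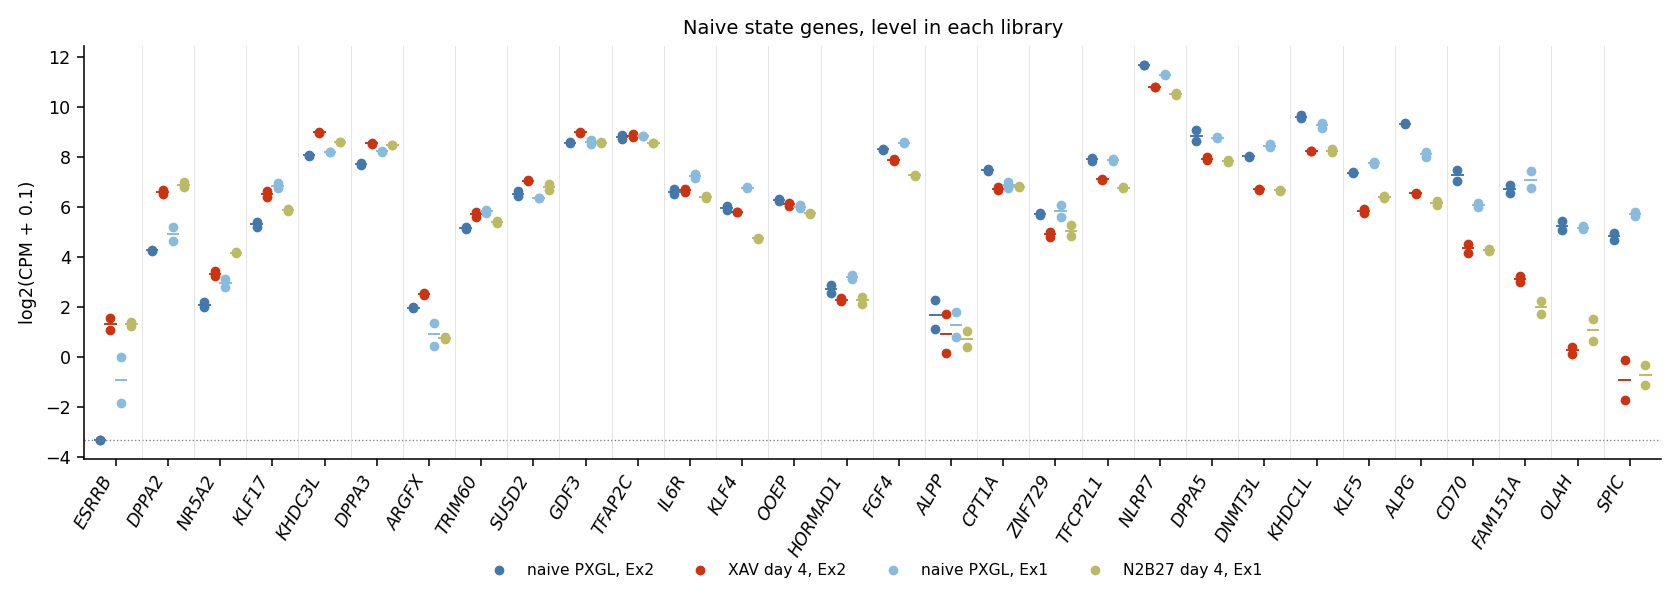
Level of the 30 naive state genes as log2(CPM + 0.1) in each library of naive cells and XAV day 4 of Ex2 and of naive cells on Geltrex and N2B27 day 4 of Ex1, ordered by their change in Ex2. Points are libraries, short bars are means of 2, and the dotted line is a count of 0: SPIC, OLAH and FAM151A lie far lower in XAV than in naive cells, while KLF17 and KLF4 differ between the naive groups.

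The 10 general pluripotency genes had positive values, and 3 were called higher, against 11.5% of all genes. POU5F1 had 412.8 and 336.4 CPM in naive and 534.7 and 489.9 CPM in XAV (log2 0.45 ± 0.29, adjusted p = 0.231). NANOG had 776.9 and 881.5 CPM against 1415 and 1471 CPM (log2 0.80 ± 0.11, adjusted p = 2.72e-07), inside the size threshold. SALL4 had 138.3 and 153.3 CPM against 339.1 and 331.6 CPM (log2 1.20 ± 0.12, adjusted p = 1.79e-09), while the Ex1 naive libraries held 338.2 and 287.4 CPM and gave no call (0.10, adjusted p = 0.563). UTF1 (1.19) and TDGF1, a Nodal co-receptor (1.07), were also called. TDGF1 was not called against the Ex1 naive libraries (0.27, adjusted p = 0.114). Against all 6 naive libraries, with those on serum coating, 0 of the 10 genes were called, where 10.5% of all genes were higher and 6.57% lower.

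The primed or formative genes rose almost throughout. Of 24 listed 23 were tested, 22 rose and none fell, against 11.5% and 8.08% of all genes, with a median of 3.98, or 3.81 with 5 genes at 0 naive counts set to their lower bounds. THY1, the surface protein CD90, had no naive count and 77.9 and 81.7 CPM in XAV, at least 174-fold higher. PTPRZ1, a receptor phosphatase, had no naive count and 71.4 and 75.5 CPM in XAV, at least 160.2-fold higher. SOX11, a SOX family factor, had 1.71 and 1.66 CPM against 195 and 207.7 CPM (log2 6.88 ± 0.25, adjusted p = 1.79e-20). No library of one side reached the other for any of these. The zinc finger gene ZIC2 had 1.02 and 0.553 CPM against 47.5 and 48.2 CPM (log2 5.92 ± 0.33, adjusted p = 8.64e-16).

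Genes already transcribed in naive cells rose too. DNMT3B, the de novo DNA methyltransferase, had 219.6 and 194.2 CPM against 1406 and 1373 CPM (log2 2.75 ± 0.11, adjusted p = 2.11e-19). The surface protein gene CD24 had 53.6 and 63.1 CPM against 882.6 and 897 CPM (log2 3.93 ± 0.12). The sialomucin gene PODXL had 41 and 29.9 CPM against 543.1 and 568.6 CPM (log2 3.98 ± 0.15). These 3 were several-fold above naive in both XAV libraries. OTX2, a homeobox gene of the later epiblast, was at 4.83 and 4.98 CPM in XAV (log2 1.66, adjusted p = 0.00092). OTX2 lost its call without naive replicate 2 (1.28, adjusted p = 0.0636) and had a value of −0.29 against the Ex1 naive libraries (adjusted p = 0.461). LIN28B was the tested member not called (log2 0.06, adjusted p = 0.674). Among the other DNA methylation enzymes, DNMT1 rose by 1.22 ± 0.11 (and 0.38 against the Ex1 naive libraries, inside the size threshold), and the demethylase gene TET2 went from 12.6 and 8.58 CPM to 1.01 and 2.39 CPM (log2 −2.60 ± 0.35).

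Of 18 tested cadherin and epithelial adhesion genes 5 rose and none fell, beside 11.5% and 8.08% of all genes (median 0.44, or 0.34 with 3 genes at 0 in naive cells set to their lower bounds). The simple epithelial keratin KRT18, which has many processed copies that could share reads, went from 20.2 and 17.4 CPM to 498.1 and 489.3 CPM (log2 4.72 ± 0.13, adjusted p = 1.41e-23), and its partner KRT8 rose by 3.09 ± 0.19. VIM (vimentin) had no naive count and 12.1 and 14.3 CPM in XAV, at least 28.8-fold higher. CDH2 (N-cadherin) had 3 naive counts and 3.62 and 3.59 CPM in XAV (ratio 7.86, interval 2.48 to 39.9). CDH1 (E-cadherin), at 536.8 and 568.3 CPM against 316.5 and 323.8 CPM (log2 −0.79 ± 0.13), and EPCAM (0.30) were not called. Of 20 matrix and integrin genes 9 rose and none fell (median 1.06), among them COL1A2 (log2 5.18 ± 0.27) and ITGA2 (3.82 ± 0.45). COL1A1, COL1A2 and THY1 were also the called members of the fibroblast list. Of 16 tested YAP and TEAD target genes 7 rose and 1 fell (median 1.20), with AMOTL2, a YAP-binding angiomotin, at 4.44 and 2.21 CPM against 77.7 and 78.5 CPM (log2 4.59 ± 0.35). The listed targets CCN1 and CCN2 were not found under these names in the deposited counts and are not among the 16.

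For the metabolic and stress lists the share over all genes was 11.5% higher and 8.08% lower. Of 23 glycolysis genes 4 rose and 3 fell, not far from those shares, with a median of −0.04. The glucose transporter gene SLC2A1 had 40.0 and 37.6 CPM against 243.5 and 253.9 CPM (log2 2.68 ± 0.13), and the hexokinase gene HK1 26.3 and 27.1 CPM against 232.6 and 218.5 CPM (log2 3.08 ± 0.16). ENO2 (enolase 2) went from 147.5 and 156 CPM to 29 and 30.7 CPM (log2 −2.35 ± 0.17). The transporter and hexokinase genes were thus higher and the enolase gene lower in both XAV libraries. None of the 14 cytochrome c oxidase subunit genes was called, with a median of −0.48. Of 15 tested genes of the response to low oxygen 1 rose and 2 fell (median 0.04). Of the falls, that of P4HA1, a collagen prolyl hydroxylase (−1.04), was not called without naive replicate 1 (−0.89), without XAV replicate 2 (−0.98) or against the Ex1 naive libraries (−0.43). Of 16 amino acid stress genes driven by ATF4 1 rose and 2 fell (median −0.14), and the fall of DDIT3, a stress transcription factor (−1.52), was not called against the Ex1 naive libraries (−0.64) or all 6 naive libraries (−0.89). Of 18 sterol synthesis genes 6 rose and none fell (median 0.68). Against the Ex1 naive libraries, where 10.1% of all genes were higher, 2 of the 18 sterol genes were called higher, near that share. HMGCS1 (1.01), IDI1 (1.41) and LSS (1.06) were among those not called (0.71, 0.84 and 0.59). LSS was also not called without naive replicate 2 (0.96) nor HMGCS1 without XAV replicate 2 (0.98).

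Of 16 p53 target genes 4 fell and none rose, beside 8.08% and 11.5% of all genes (median −0.39). GDF15, a stress cytokine, went from 455.2 and 326.5 CPM to 127.8 and 118.9 CPM (log2 −1.66 ± 0.14). The Ex1 naive libraries held 120.7 and 111.9 CPM of GDF15, and against them the value was 0.09 (adjusted p = 0.693). With those libraries 0 of the p53 targets fell and 3 rose, where 5.85% of all genes fell and 10.1% rose. Of 21 tested cell cycle genes 4 rose and none fell, against 11.5% and 8.08% of all genes (median 0.03). The G1 genes CCND2, cyclin D2, at 5.12 and 4.98 CPM against 594.7 and 652.2 CPM (log2 6.94 ± 0.25), and CDK6, at 2.39 and 2.49 CPM against 30.8 and 35.3 CPM (log2 3.74 ± 0.24), were among them. Of 18 imprinted genes 6 rose and none fell, against the same shares (median 0.69), with NNAT at 13 and 12.2 CPM against 154.3 and 153.1 CPM (log2 3.61 ± 0.18) and PEG3 changed by 2.06 ± 0.13.

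Markers of other lineages were counted by list, beside 11.5% higher and 8.08% lower over all genes. Of 10 tested trophectoderm genes 3 rose and 2 fell, with a summed level of 27 to 30.4 CPM in naive and 35.6 to 38 CPM in XAV. Of 6 tested amnion genes 3 rose and none fell (15.7 to 15.8 CPM, then 46.9 to 48 CPM), and of 9 endoderm genes 3 rose and none fell (10.9 to 12.5 CPM, then 28.8 to 30.3 CPM). Of 7 primitive streak and mesoderm genes 2 rose and none fell (3.07 to 8.30 CPM, then 36 to 37.4 CPM), and of 5 neural genes 3 rose and 1 fell (42.3 to 58.7 CPM, then 172.6 to 176.7 CPM). The summed level was higher in both XAV libraries for each of these lists. GATA3, a trophectoderm factor, had 0.683 and 0.830 CPM in naive and 12.3 and 13.1 CPM in XAV (log2 4.01 ± 0.47, adjusted p = 3.19e-08). The Ex1 naive libraries held 4.94 and 3.07 CPM of GATA3, against which the value was 1.69. GATA2 and NR2F2, the other trophectoderm genes that rose (log2 1.88, adjusted p = 0.0378, and 2.29, adjusted p = 0.034), lost their calls under 5 and 6 of the 14 alternatives run, among them DESeq2 (0.0697 and 0.0975) and fitting only the compared libraries (0.0733 and 0.0928). GATA2 also lost it without naive replicate 2 (adjusted p = 0.343) or XAV replicate 1 (0.419), and NR2F2 without naive replicate 1 (0.238) or XAV replicate 2 (0.262). CDX2, another trophectoderm factor, had 22 naive counts and 1 in XAV (naive over XAV ratio 33.6, interval 5.43 to 1386). TBXT, the primitive streak factor, had 1 naive count and 9.46 and 10.8 CPM in XAV (ratio 66.1, interval 11.6 to 2638). GATA3 and TBXT were thus higher and CDX2 lower in both XAV libraries. The part of cells of other lineages in the results was not tested.

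The 15 largest rises among called genes with at least 20 CPM on the higher side were PTPRD, THY1, PTPRZ1, SPRY4, HPAT5, TRIM49C, ETV5, SFRP2, SOX3, ENC1, CAV1, DUSP4, DUSP6, ABCG2 and IRX4, ranked by the fitted change. PTPRD, a receptor phosphatase gene, had no naive count and 74.9 and 84 CPM in XAV, at least 173.3-fold higher. HPAT5, a noncoding RNA of human pluripotent cells, had no naive count and 32.6 and 40.8 CPM in XAV, at least 80.1-fold higher, and TRIM49C, whose family of near-identical copies makes its reads uncertain, 32.2 and 38.8 CPM. These bounds hold for the Ex2 naive libraries only. Against the Ex1 naive libraries the log2 values were 7.24 for PTPRD and 6.12 for HPAT5, both below the bound, 4.06 for TRIM49C and 9.28 for THY1. SFRP2, a secreted WNT antagonist, had 1 naive count and 51.3 and 56.2 CPM in XAV (ratio 351.7, interval 62.9 to 13920). PTPRD, HPAT5, TRIM49C and SFRP2 were at or near 0 in both Ex2 naive libraries. SOX3, a SOX factor close to SOX2, had 1 naive count and 41.7 and 51 CPM in XAV (ratio 303.2, interval 54.2 to 12000). CAV1, the coat protein of caveolae, had 1.02 and 0.553 CPM against 166.2 and 167.1 CPM (log2 7.72 ± 0.23, adjusted p = 2.57e-22). The efflux transporter gene ABCG2 had 0.683 and 0.553 CPM against 80.9 and 81.5 CPM (log2 6.99 ± 0.27).

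The 15 largest falls by the same rule were SPIC, PRAME, OLAH, REEP1, GPNMB, ELF3, ITGAM, ZC3H6, LIPH, SLC7A7, DLX3, NUPR1, IRX3, GDPD2 and DACT2, from −5.75 to −3.84 on the log2 scale. PRAME, a cancer-testis antigen of a multicopy family, had 24.9 and 29.9 CPM against 0.805 and 0.398 CPM (log2 −5.45 ± 0.56, adjusted p = 1.5e-09). ELF3, an epithelial ETS factor, had 60.4 and 76.1 CPM against 3.62 and 2.99 CPM (log2 −4.36 ± 0.20, adjusted p = 1.16e-17). The amino acid transporter gene SLC7A7 had 91.9 and 75.5 CPM against 4.83 and 4.18 CPM (log2 −4.20 ± 0.31). All 3 were low in both XAV libraries. ZC3H6, a zinc finger gene, had 27 and 23 CPM in the Ex2 naive libraries and 1.61 and 0.797 CPM in XAV (log2 −4.34 ± 0.41), but 3.59 and 3.79 CPM in the Ex1 naive libraries, against which the value was −1.60 (adjusted p = 0.0151). The other 14 falls also stayed called under each of the 14 alternatives run.

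At day 4 of Ex2, XAV was also compared with N2B27 without XAV939. Of 16674 genes 95 differed (0.570%), 6 higher (0.0360%) and 89 lower (0.534%) with XAV939. Of the 89, 49 were higher in XAV than in naive cells, 9 lower and 31 not called, beside 11.5% higher and 8.08% lower of all genes. Both comparisons share the XAV libraries. The count was 56 without XAV replicate 1, 63 without XAV replicate 2, 56 without N2B27 replicate 2 and 165 when only the 4 libraries compared were fitted.

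The 8 largest falls with XAV939, among called genes whose libraries did not overlap and whose higher group averaged 20 CPM or more, were ACTC1, NPPB, ANXA1, ACTA1, TAGLN, CSRP1, TTN and MYL9. Called genes below that level, which this ranking leaves out, included larger fitted falls. ACTC1, cardiac α-actin, had 1.37 and 0.277 CPM in naive cells, 8.85 and 9.16 CPM in XAV and 57.3 and 71.6 CPM in N2B27 (XAV against N2B27 log2 −2.84 ± 0.20, adjusted p = 3.36e-11). TAGLN, an actin-binding protein of smooth muscle, had 0.683 and 0.830 CPM, then 32 and 36.2 CPM and 125.8 and 129.4 CPM (log2 −1.90 ± 0.17, adjusted p = 9.31e-09). ANXA1, a membrane-binding annexin, had 0.342 and 0.553 CPM, then 14.7 and 19.7 CPM and 86 and 83.7 CPM (log2 −2.30 ± 0.20, adjusted p = 4.69e-09). In each case both XAV libraries lay between the naive and the N2B27 libraries. The others were the natriuretic peptide gene NPPB (−2.38), ACTA1 (−1.96), CSRP1 (−1.86), TTN (−1.81) and MYL9 (−1.67).

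List members lower with XAV939 than without included CDH2 (log2 −1.88 ± 0.27, adjusted p = 4.08e-05), GATA3 (−1.18 ± 0.24, adjusted p = 0.00384) and the tight junction gene OCLN (−1.09 ± 0.11, adjusted p = 1.25e-07). BMP4 had 11.6 and 13.3 CPM in naive cells, 27.4 and 22.1 CPM in XAV and 67.7 and 72.8 CPM in N2B27 (XAV against N2B27 log2 −1.51 ± 0.15, adjusted p = 8.65e-08). Its change from naive to XAV (log2 0.98 ± 0.20, adjusted p = 0.000147) lay just inside the size threshold, and BMP4 was called with library totals as scaling (1.01), with no filter (1.00), with a filter of more than 10 counts in 2 libraries, and without naive replicate 2 (1.12) or XAV replicate 2 (1.13). OCLN had 66.9 and 67.5 CPM in naive cells, 68 and 68.7 CPM in XAV and 143.6 and 146.7 CPM in N2B27. BMP4 and OCLN were thus highest in the N2B27 libraries. DUSP4, at 32.8 and 31.1 CPM in XAV and 60.2 and 56.4 CPM in N2B27, had a log2 value of −0.87 ± 0.16 (adjusted p = 0.00155), inside the threshold. On the higher side KIT, GYPC and ABCA1 met the rule for named genes. KIT, the stem cell factor receptor, had 28.4 and 26.9 CPM in XAV and 12.8 and 10.2 CPM in N2B27 (log2 1.27 ± 0.23, adjusted p = 0.000939), beside 27.7 and 36.8 CPM in naive cells. The sterol transporter gene ABCA1 had 57.4 and 51 CPM in XAV and 26.1 and 27.6 CPM in N2B27 (log2 1.01 ± 0.18, adjusted p = 0.000622), beside 123.6 and 114.3 CPM in naive cells.

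**Figure D5:**
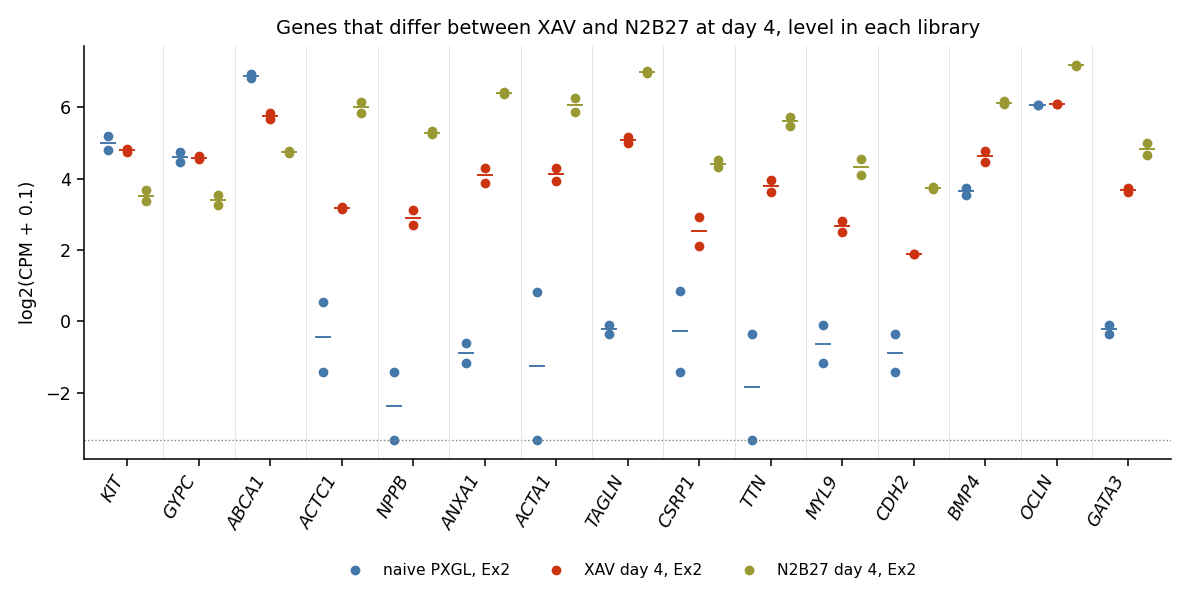
Level as log2(CPM + 0.1) in each library of naive cells, XAV day 4 and N2B27 day 4 of Ex2 for named genes called between XAV and N2B27. Points are libraries, short bars are means of 2, and the dotted line is a count of 0: ACTC1 has 8.85 and 9.16 CPM in XAV, between the naive and the N2B27 libraries.

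The size of many changes depended on which naive libraries were used. Of 159 called genes followed under each alternative, 81 moved by more than 1.5 times when the Ex1 naive libraries replaced those of Ex2, 60 to a smaller and 21 to a larger change, and 62 of the 81 kept their call. Among ERK pathway genes that kept it, ETV5 (5.125), DUSP6 (6.06), PHLDA1 (4.66), MYC (3.89), ETV1 (3.74), CCND1 (3.36) and IL17RD (1.63) were smaller. SPRY1 (3.32), SPRED2 (3.04), ETV4 (3.96), FOSL1 (2.89) and DUSP4 were larger, DUSP4 having no count in the Ex1 naive libraries. Without 1 Ex2 library 4 to 25 of the 159 moved as much, most of them genes with at most 10 counts in naive or in XAV cells (23 of 24 without naive replicate 1, 24 of 25 without naive replicate 2, 4 of 4 without XAV replicate 1 and 4 of 6 without XAV replicate 2).

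With the Ex1 naive libraries, where 10.1% of all genes were higher and 5.85% lower, the ERK pathway list kept 19 genes higher. The count of higher genes went from 4 to 2 for PKC, 5 to 3 for WNT, 6 to 3 for Nodal and Activin, 8 to 5 for BMP, 2 to 1 for DNA methylation enzymes and 2 to 1 for primitive streak and mesoderm genes. The count of lower genes went from 3 to 1 for glycolysis, 2 to 1 for low oxygen, 2 to 1 for amino acid stress and 1 to 0 for YAP and TEAD targets. The fall among YAP and TEAD targets was also lost with DESeq2 and without naive replicate 2, XAV replicate 1 or XAV replicate 2. Of the 2 lower genes of the Nodal list, 1 was left without naive replicate 2 or XAV replicate 2, and of the 4 lower p53 targets 2 were left without naive replicate 1.

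The change in XAV was last set beside an exit from PXGL that shared no library with it, N2B27 at day 4 against naive cells in Ex1, where 2775 genes were called (16.6%), 11.7% of all genes being higher and 4.98% lower. Of these 1669 were called in the same direction in XAV, which is 51% of the XAV calls and 60.1% of the Ex1 calls, and 14 in the opposite direction. Log2 changes correlated across the 16674 genes with Pearson's r = 0.681 and Spearman's rho = 0.569, as a description, since genes are not replicates. Of the 21 ERK pathway genes 19 were higher and 1 lower in Ex1, with a median of 3.81, and of the 23 primed genes 20 and 0, with a median of 4.63. Of the 30 naive genes 3 were higher and 11 lower in Ex1, with a median of −0.81 against −0.43 in XAV. The size of the change differed between the settings in 1001 genes (6.0%), 454 with a higher value in XAV (2.72%) and 547 with a lower one (3.28%). Medium and experiment both differ between these settings and cannot be told apart in this count. Within Ex2, 95 genes differed between the XAV and N2B27 media (0.570%), in a different contrast whose count was not tested against the 1001.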

How the data were processed

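Shef6 RNA was sequenced as 3′ tags in 38 libraries, of which 4 form the comparison. Per the authors' methods and processing notes, reads were checked with FastQC 0.11.9 and quantified on hg38 with Salmon 1.9.0 and STAR 2.7.10a through tximport. The deposited table holds these as whole, unnormalized counts for 57133 genes. Genes were filtered by expression (16674 kept, with 99.65% of counts), scaled by TMM and fitted with edgeR 4.0.16 in R 4.3.3 by the quasi-likelihood test, in 1 model of 19 groups of 2 libraries, with Benjamini-Hochberg adjustment. Sharing 1 estimate of spread assumes that all groups vary alike. DESeq2 1.42.0 was an alternative. Low naive levels were given as a bound against 3 counts or as a ratio with an exact interval. On data simulated for XAV against naive (16674 genes), 90 of 100 changes of log2 1.5 and 100 of 100 of log2 3 were recovered, with 4 false calls. The changes were put only in genes above a set mean level over all libraries, and the groups were otherwise alike. Fewer genes were changed than were called in the data, and the recovery does not cover genes of few naive counts. Genes named were the members of 28 lists and the 15 largest rises and falls whose higher group averaged 20 CPM or more without overlapping libraries, and the 8 largest each way for XAV against N2B27. Members and lists were chosen with earlier results of these data known. Same-numbered replicates of the Ex2 groups did not deviate together (correlation −0.04 to 0.05), so no pairing was used. Start windows came from RefSeq (GRCh38.p14) and gene positions from GENCODE on GRCh38. CCN1 and CCN2 were not analysed here.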

Additional observations from a re-analysis of the deposited data

Results flagged for a closer look

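The change from naive to XAV in Ex2 was tested against the change from naive to N2B27 in Ex1, as the difference of both log2 changes in the shared model (edgeR, adjusted over all tested genes). Medium and experiment cannot be told apart in this difference. Of all genes 1001 passed (6.0%), and the 23 of them named here are given because their changes differed between the settings. Within Ex2, BMP4 and ACTC1 were called between XAV and N2B27, and the other 21 were not.

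Among ERK, WNT and BMP pathway genes the difference was 2.89 for ETV5 (adjusted p = 0.0409), 1.42 for ETV1 (0.0111), 1.79 for JUNB (0.00201), −2.15 for SPRY1 (0.00919), 1.261 for TCF7 (0.0147), −2.36 for RNF43 (0.00994), 2.01 for ID1 (1.36e-07) and −1.10 for BMP4 (0.00597). For the Nodal genes it was 1.32 for LEFTY1 (0.00168) and 1.11 for NODAL (0.00152), and for the LIF pathway kinase TYK2 −1.30 (0.017). The naive levels also differed, with 2.73 and 1.94 CPM of ETV1 in Ex2 and 7.18 and 5.59 CPM in Ex1, and 4.78 and 2.77 CPM of SPRY1 in Ex2 and 0.673 and 0.902 CPM in Ex1. ETV5 had 1 naive count in Ex2, and its mean at day 4 was 56.8 CPM in XAV and 68.7 CPM in N2B27 of Ex1.

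Among state markers it was 2.20 for KLF17 (adjusted p = 9.43e-05), 1.88 for KLF4 (2.77e-06), 1.52 for FAM151A (0.00852), −1.12 for CD70 (0.0235) and 1.22 for CD24 (5.18e-06). KLF4 changed by −2.04 in Ex1, from 108.9 and 110.4 CPM to 26 and 27.4 CPM (adjusted p = 8.01e-12), against −0.16 in XAV. KLF17 changed by −0.98 in Ex1 (adjusted p = 0.0015) and by 1.22 in XAV, and its naive level also differed, with 36.9 and 42.3 CPM in Ex2 and 107.5 and 125.9 CPM in Ex1.

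TRIM49C had 0 counts in both Ex2 naive libraries, so its fitted difference of 6.56 (adjusted p = 0.0216) depends on the prior count and is neither a size nor a bound. The remaining differences were 1.53 for IRX3 (adjusted p = 0.038), −1.11 for ENO2 (0.00137), −1.62 for GDF15 (1.72e-06), −1.75 for P4HA1 (2.71e-10), −3.13 for ACTC1 (0.0485) and −4.08 for ZC3H6 (3.84e-05). ZC3H6 had 27 and 23 CPM in the naive libraries of Ex2 and 3.59 and 3.79 CPM in those of Ex1.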

How the results depend on the processing

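The count of 3272 genes between XAV and naive ranged from 2665 with the Ex1 naive libraries to 3365 with the 8 Ex2 libraries, and was 2812 with DESeq2 and 2807 to 2978 without 1 library. Between XAV and N2B27 the count of 95 was 165 when only the compared libraries were fitted and 56 to 80 without 1 library (56 without XAV replicate 1 or N2B27 replicate 2, and 63 without XAV replicate 2). The 2775 genes of Ex1 became 2283 to 2516, and the 1001 genes that differed between the settings 620 to 911, without 1 library (666 without Ex1 N2B27 replicate 2, 620 without Ex1 naive replicate 2 and 633 without Ex2 naive replicate 1). With a replicate block the counts were 3249, 91, 2753 and 999, and the numbers do not pair the samples. Over 189 genes and 14 alternatives, 2518 of 2646 values kept direction and side of the threshold, 90 lost the call, 15 gained it and 23 changed sign. The cause was not tested. With the Ex1 naive libraries the sign changed for JUNB (−0.59), KLF17 (−0.33), SOX2 (−0.13), OTX2 (−0.29), LIN28B (−0.30), NODAL (−0.18), GDF15 (0.086), GYPC (1.01) and TNKS2 (−0.12), and with all 6 naive libraries for JUNB (−0.50), LIN28B (−0.20), GYPC (0.63) and TNKS2 (−0.13). Without 1 library the values ranged across 0 for LIFR (−0.13 to 0.39), TFAP2C (−0.022 to 0.16, and −0.0072 without XAV replicate 2), LIN28B (−0.025 to 0.17), KIT (−0.41 to 0.029), GYPC (−0.17 to 0.16, and 0.0044 without XAV replicate 2), TNKS (−0.068 to 0.20) and TNKS2 (−0.038 to 0.15, and −0.011 without XAV replicate 1), none of them called between XAV and naive in those fits. With 2 libraries a side and naive totals near the low end of the series, genes of few counts limit the precision.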
